A study of Homo sapiens with 4 samples.

Results

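The genes described here are 31 well-known transcriptional targets of p53, the tumour suppressor that responds to DNA damage and other stress. They were chosen by name from general knowledge of the pathway, with earlier results of these data known. Each was looked up among the 56753 loci of the deposited table. All 31 were found. MDM2 and PHLDA3 were each measured in a locus that also carries the name of a clone-named RNA, so their values include any reads of that partner.

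The libraries came from 786-O, a cell line derived from a human clear cell kidney tumour. There were 2 libraries from cells stably transduced with PRDM16 lentivirus and 2 from cells stably transduced with the control vector, all from adherent cells under standard culture. The comparison asks what overexpression of PRDM16 does to the transcriptome. PRDM16 is a zinc finger protein that regulates transcription and is best known from brown fat. Whether each transduced line was a pool or a single clone is not given in the sources used here. Nor is it stated that replicates were separate cultures, so the p-values may reflect technical spread alone.

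In unstressed cells p53 is kept scarce by the ubiquitin ligase MDM2 and its partner MDM4. When damage signals free it, p53 binds response elements in its target genes and raises their transcription. The products slow the cell cycle, repair DNA, adjust metabolism or start cell death, and some of them feed back on p53 itself. Many targets also have other activators, among them the ATF4 branch of the integrated stress response, so a change in one target is no readout of p53 alone.

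PRDM16 itself was at 1226 and 1146 FPKM (fragments per kilobase of transcript, a level scaled for gene length and depth) in the PRDM16 libraries, against 0.0157 and 0.234 FPKM in the control vector libraries. It was the only protein-coding gene named here that passed the test (log2 change 10.05, SE 0.13, limma adjusted p = 0.000317). Log2 changes are PRDM16 minus control vector on log2(FPKM + 1), a scale that understates the change of low genes. Summed FPKM were 572128 and 573347 in the PRDM16 libraries and 574003 and 556213 in the control vector libraries. Depth relative to control vector replicate 1, read from the steps between the lowest values, was 1.26 and 1.17 in the PRDM16 libraries and 1.39 in control vector replicate 2. Absolute read numbers are unknown. The 8 kidney carcinoma line markers were all detected, at means from 5.08 FPKM for PAX2 to 3408 FPKM for VIM. PAX8, a renal lineage factor, was at 190.3 and 169 FPKM in PRDM16 and 202 and 208 FPKM in the control vector. PAX2 was at 4.62 and 5.37 FPKM in PRDM16 and 5.22 and 5.12 FPKM in the control vector. Of the 8 markers, 4 were lower and 2 higher without overlap, against 20.3% and 21.1% of all tested loci. EPAS1 was at 74.0 and 63.6 FPKM in PRDM16, against 79.6 and 140.7 FPKM in the control vector. KRT18, in a locus that also carries a clone-named gene, was at 101.4 and 103.1 FPKM in PRDM16, against 81.6 and 74.5 FPKM in the control vector. Summed leukocyte markers lay between 0.192 and 0.280 FPKM in PRDM16 and between 0.202 and 0.251 FPKM in the control vector, with 1 of 5 listed at 0 in all libraries. A further leukocyte marker, CD68, shares its locus with EIF4A1 and other genes and was left out of the sum. Summed endothelial markers lay between 0.209 and 0.220 FPKM in PRDM16 and between 0.188 and 0.202 FPKM in the control vector. Of 5 fibroblast markers, 2 (COL1A1 and LUM) had a mean of at least 1 FPKM, and the sum over all 5 lay between 4.42 and 4.86 FPKM in PRDM16 and between 4.53 and 4.63 FPKM in the control vector.

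Stretches of 6 promoters are printed, because these members stood apart between the groups with the smallest unadjusted p among those with a promoter sequence that may be shown. They run from 100 bases before the start to 30 bases into the transcript, 5′ to 3′ on the gene's own strand, and come from RefSeq on GRCh38.p14. Capitals mark an exact match to the p53 half-site RRRCWWGYYY, the decamer of which a full p53 response element has a pair. R stands for A or G, W for A or T, and Y for C or T. The half-site is its own reverse complement, so a single search covers both strands. For DDB2, which has more than 1 listed start, the stretch with a match is shown, and for ZMAT3 the first of the listed starts.
SPATA18 (chr4:52051204-52051333, plus strand): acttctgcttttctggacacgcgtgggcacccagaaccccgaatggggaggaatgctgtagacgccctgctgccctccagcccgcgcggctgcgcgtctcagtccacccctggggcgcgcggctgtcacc
CDKN1A (chr6:36678614-36678743, plus strand): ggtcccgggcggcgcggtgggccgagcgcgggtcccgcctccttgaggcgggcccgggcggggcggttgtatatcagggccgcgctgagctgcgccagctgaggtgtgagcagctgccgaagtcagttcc
ZMAT3 (chr3:179071780-179071909, minus strand): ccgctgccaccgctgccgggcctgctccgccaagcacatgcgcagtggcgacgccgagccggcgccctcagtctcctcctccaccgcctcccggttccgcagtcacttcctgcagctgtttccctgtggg
DDB2 (chr11:47214874-47215003, plus strand): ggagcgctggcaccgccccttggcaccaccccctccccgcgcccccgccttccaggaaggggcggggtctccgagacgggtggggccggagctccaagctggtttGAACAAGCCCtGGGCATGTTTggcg
AEN (chr15:88621240-88621369, plus strand): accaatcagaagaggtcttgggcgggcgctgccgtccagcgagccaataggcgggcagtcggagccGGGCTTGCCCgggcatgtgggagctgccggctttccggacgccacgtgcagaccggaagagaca
PLK3 (chr1:44800277-44800406, plus strand): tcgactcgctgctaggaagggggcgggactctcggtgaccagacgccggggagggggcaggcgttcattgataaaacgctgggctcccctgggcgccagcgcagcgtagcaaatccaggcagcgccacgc

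The half-site was searched in all RefSeq promoter windows, which hold 250 bases before and 50 after each start. Of the 31 members, 25 had at least 1 window, and 6 of these 25 genes (24%) held a half-site, against 2202 of 27305 genes (8.06%) overall. DDB2 was the only member with a pair of exact half-sites at most 13 bases apart. Decamers with mismatches were not counted, so a member shown with a lone match may still hold a full element there. Its half-sites are separated by 1 base, and 10 genes of 27305 (0.0366%) held such a pair. The other 4 members with a half-site are shown with 10 bases on either side, chosen after the search.
FAS (chr10:88991299-88991328, plus strand): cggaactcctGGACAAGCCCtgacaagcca
SESN1 (chr6:109009018-109009047, minus strand): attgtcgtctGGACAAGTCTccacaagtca
FDXR (chr17:74872986-74873015, minus strand): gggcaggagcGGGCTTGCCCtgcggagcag
PLK2 (chr5:58460199-58460228, minus strand): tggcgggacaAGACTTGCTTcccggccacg

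The half-site did not go with 1 direction among these 6 members. DDB2, SESN1 and FDXR had both PRDM16 libraries below both control vector libraries, AEN and FAS had both above, and PLK2 overlapped. A match describes letters in a window and is no evidence of binding, and windows without a match leave distal elements unsearched.

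No member passed the test across the 13246 loci with a mean of at least 1 FPKM, where 3 loci (0.0226%) were called. The limma adjusted p of the members lay between 0.689 and 0.993. Many members nevertheless leaned lower with PRDM16 by small amounts, though not equally in both PRDM16 libraries. Of the 31 members, 20 had a log2 change below 0 and 11 above, against 49.3% below 0 among all tested loci, and the median was -0.12, against 0.00399 for all tested loci. Both PRDM16 libraries lay below both control vector libraries at 14 members (45.2%), against 20.3% of all tested loci. They lay above at 5 members (16.1%), against 21.1%. An unadjusted p under 0.05 was found for 6 members (19.4%), against 6.12% of all tested loci. Of these, 4 were lower (12.9%, against 3.7%) and 2 were higher (6.45%, against 2.42%). The number of members with such a p was 11 without control vector replicate 1, where 3758 of 13229 loci had one. It was 3 without control vector replicate 2 (936 of 13157 loci), 2 without PRDM16 replicate 1 (299 of 13256 loci) and 0 without PRDM16 replicate 2 (204 of 13238 loci). These shares describe a list chosen with earlier results known and carry no test.

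**Figure D1:**
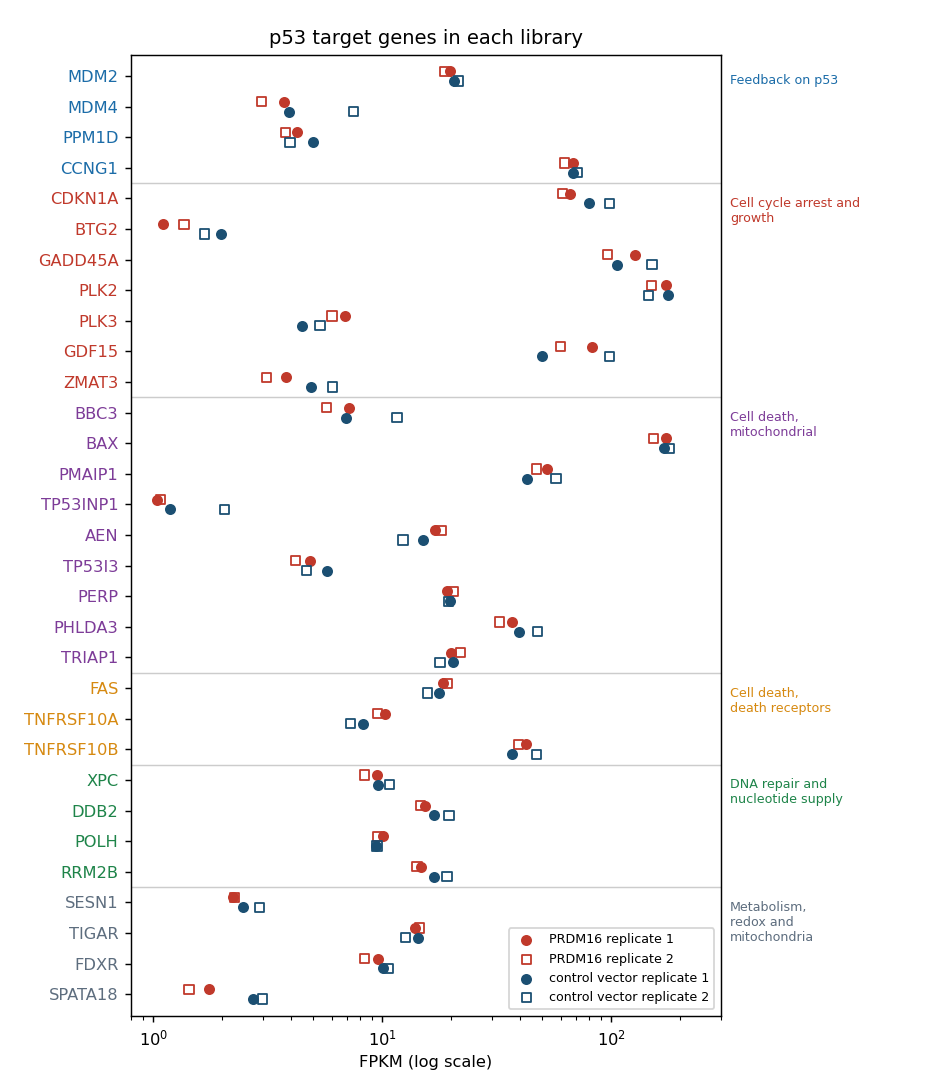
FPKM of the 31 p53 target genes on a log scale, with 1 point per library (red, PRDM16; blue, control vector; filled circles, replicate 1; open squares, replicate 2), grouped by role. Most pairs of red and blue points lie close together, and the widest gaps with no overlap are those of SPATA18, ZMAT3, BTG2 and CDKN1A, where red lies left of blue.

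The members spanned a wide range of levels. BAX had the highest mean over the 4 libraries at 169 FPKM and TP53INP1 the lowest at 1.33 FPKM. All 31 passed the filter on low values. All 8 members with a mean under 5 FPKM had a log2 change below 0, with a median of -0.33, against 12 of 23 members at 5 FPKM or more, with a median of -0.03. Among all tested loci, 59.2% of those under 5 FPKM and 45.6% of those at 5 FPKM or more had a log2 change below 0, with medians of -0.05 and 0.02. The difference between the levels was not tested.

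Among the effectors of cell cycle arrest, CDKN1A, ZMAT3 and BTG2 were lower and PLK3 was higher in both PRDM16 libraries. CDKN1A encodes p21, the cyclin-dependent kinase inhibitor through which p53 halts the cell cycle, and is annotated on chromosome 6 at 36676460 to 36687339. It was at 65.8 and 61.2 FPKM in the PRDM16 libraries, against 79.8 and 98.1 FPKM in the control vector libraries. Both PRDM16 libraries were therefore below both control vector libraries, at means of 63.5 ± 3.27 and 88.9 ± 12.9 FPKM (SD, n = 2 each), 1.40-fold lower with PRDM16. The log2 change was -0.47 (SE 0.13, limma adjusted p = 0.689), and -0.33 without control vector replicate 2.

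ZMAT3, an RNA-binding protein that acts in splicing downstream of p53, lies on chromosome 3 at 179017223 to 179072279. It was at 3.80 and 3.12 FPKM in PRDM16, against 4.89 and 6.07 FPKM in the control vector. The groups did not overlap, and ZMAT3 was 1.58-fold lower on the means (log2 change -0.54, SE 0.15, limma adjusted p = 0.689). BTG2, an antiproliferative protein that promotes mRNA deadenylation, was at 1.10 and 1.36 FPKM in PRDM16, against 1.99 and 1.67 FPKM in the control vector. It was 1.49-fold lower without overlap, at levels close to the filter. Both genes had their higher PRDM16 value in a different replicate, so neither PRDM16 library was lower throughout.

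PLK3, a polo-like kinase of the stress response, pointed the other way. It was at 6.85 and 6.02 FPKM in PRDM16, against 4.44 and 5.35 FPKM in the control vector, 1.32-fold higher without overlap (log2 change 0.34, SE 0.13). Its relative PLK2, a kinase with roles at the centriole, was at 173 and 149 FPKM in PRDM16 and 176 and 145 FPKM in the control vector. The PLK2 values of the groups overlapped, and the log2 change was 0.0036.

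GADD45A, a stress sensor that acts on cell cycle and DNA repair factors, and GDF15, a secreted stress cytokine, varied more between replicates than between groups. GADD45A was at 126 and 95.8 FPKM in PRDM16 and 106 and 150.4 FPKM in the control vector. GDF15 was at 82.5 and 59.9 FPKM in PRDM16 and 49.6 and 97.9 FPKM in the control vector. For both genes control vector replicate 2 was the highest library. For GADD45A the log2 change was 0.06 without that library and -0.45 without control vector replicate 1. For GDF15 it was 0.49 without that library and -0.47 without control vector replicate 1.

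All 4 feedback regulators of p53 had a log2 change below 0, against 49.3% of all tested loci, and none had an unadjusted p under 0.05. Both PRDM16 libraries lay below both control vector libraries at 3 of the 4, against 20.3% of all tested loci. A set of 4 genes is too small to describe the role as a whole. MDM2, the ubiquitin ligase that marks p53 for destruction, was at 19.8 and 18.7 FPKM in PRDM16, against 20.6 and 21.5 FPKM in the control vector. The groups did not overlap, but they differed by only 1.09-fold (log2 change -0.12, SE 0.09). MDM4, which blocks the p53 activation domain, was at 3.72 and 2.98 FPKM in PRDM16, against 3.90 and 7.48 FPKM in the control vector. Its 1.70-fold lower mean depended on control vector replicate 2, and the log2 change of -0.57 was -0.18 without that library. CCNG1, a cyclin that recruits a phosphatase to MDM2, was at 67.7 and 62.6 FPKM in PRDM16, against 68.1 and 71.2 FPKM in the control vector, again without overlap. The gap between the groups was only 67.7 to 68.1 FPKM, and the log2 change was -0.10 (SE 0.09). PPM1D, the phosphatase WIP1 that shuts off damage signalling, overlapped between the groups, at 4.26 and 3.79 FPKM in PRDM16 and 4.97 and 3.96 FPKM in the control vector. Its log2 change of -0.12 was 0.018 without control vector replicate 1.

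Genes of the mitochondrial death pathway and other apoptosis factors were mixed. Of the 9, 5 had a log2 change below 0 (55.6%, against 49.3% of all tested loci). The groups overlapped at 6 of 9, as they did at 7756 of the 13246 tested loci. BAX, which permeabilises the outer mitochondrial membrane, was at 173 and 153 FPKM in PRDM16 and 169.8 and 179 FPKM in the control vector. PMAIP1 (NOXA), a BH3-only protein that neutralises BCL2 relatives, was at 52.5 and 47.1 FPKM in PRDM16 and 42.9 and 57.3 FPKM in the control vector. The BH3-only gene BBC3 (PUMA) was at 7.15 and 5.72 FPKM in PRDM16 and 6.97 and 11.6 FPKM in the control vector. All of these 3 genes overlapped, and all had their highest value in control vector replicate 2.

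PHLDA3, a pleckstrin homology protein that restrains AKT, was at 36.8 and 32.5 FPKM in PRDM16, against 39.6 and 47.6 FPKM in the control vector. It was 1.26-fold lower without overlap (log2 change -0.32, SE 0.13), and its log2 change was -0.19 without control vector replicate 2. TP53INP1, a nuclear cofactor that promotes p53-dependent death, was at 1.03 and 1.08 FPKM in PRDM16, against 1.18 and 2.04 FPKM in the control vector. The groups did not overlap, while the log2 change of -0.32 was -0.09 without control vector replicate 2.

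AEN, an exonuclease that degrades DNA during apoptosis, was higher with PRDM16. The gene lies on chromosome 15 at 88621296 to 88632282. It was at 17.0 and 18.0 FPKM in PRDM16, against 15.02 and 12.3 FPKM in the control vector, 1.28-fold higher without overlap (log2 change 0.34, SE 0.13, limma adjusted p = 0.689). Without control vector replicate 2 its log2 change was 0.21. The rest of this group overlapped. TP53I3, a quinone oxidoreductase, was at 4.81 and 4.17 FPKM in PRDM16 and 5.75 and 4.66 FPKM in the control vector. PERP, a membrane protein of desmosomes, was at 19.2 and 20.4 FPKM in PRDM16 and 19.8 and 19.4 FPKM in the control vector. TRIAP1, an inhibitor of apoptosis at the mitochondrion, was at 19.97 and 21.9 FPKM in PRDM16 and 20.4 and 17.8 FPKM in the control vector. PERP varied little, with a log2 change of 0.02 (SE 0.09).

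Of the 3 death receptor genes, 2 had a log2 change above 0, against 50.7% of all tested loci. Both of these were higher without overlap, against 21.1% of all tested loci. TNFRSF10A, a receptor for the death ligand TRAIL, lies on chromosome 8 at 23190452 to 23225126. It was at 10.2 and 9.49 FPKM in PRDM16, against 8.21 and 7.28 FPKM in the control vector. The groups did not overlap, and the gene was 1.27-fold higher with PRDM16 (log2 change 0.31, SE 0.11, limma adjusted p = 0.689). FAS, the receptor for FAS ligand, was at 18.5 and 19.3 FPKM in PRDM16, against 17.6 and 15.7 FPKM in the control vector, 1.13-fold higher without overlap. The second TRAIL receptor gene, TNFRSF10B, overlapped at 42.2 and 39.4 FPKM in PRDM16 and 36.9 and 47.2 FPKM in the control vector (log2 change -0.03). Exons of FAS overlap those of ACTA2 on the opposite strand, and 12 of the 31 members share exonic sequence with an annotated gene on the other strand. CDKN1A (with DINOL), TNFRSF10A and PLK3 are among them. Whether the libraries kept strand is not given in the sources used here, so reads of such partners cannot be told apart.

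**Figure D2:**
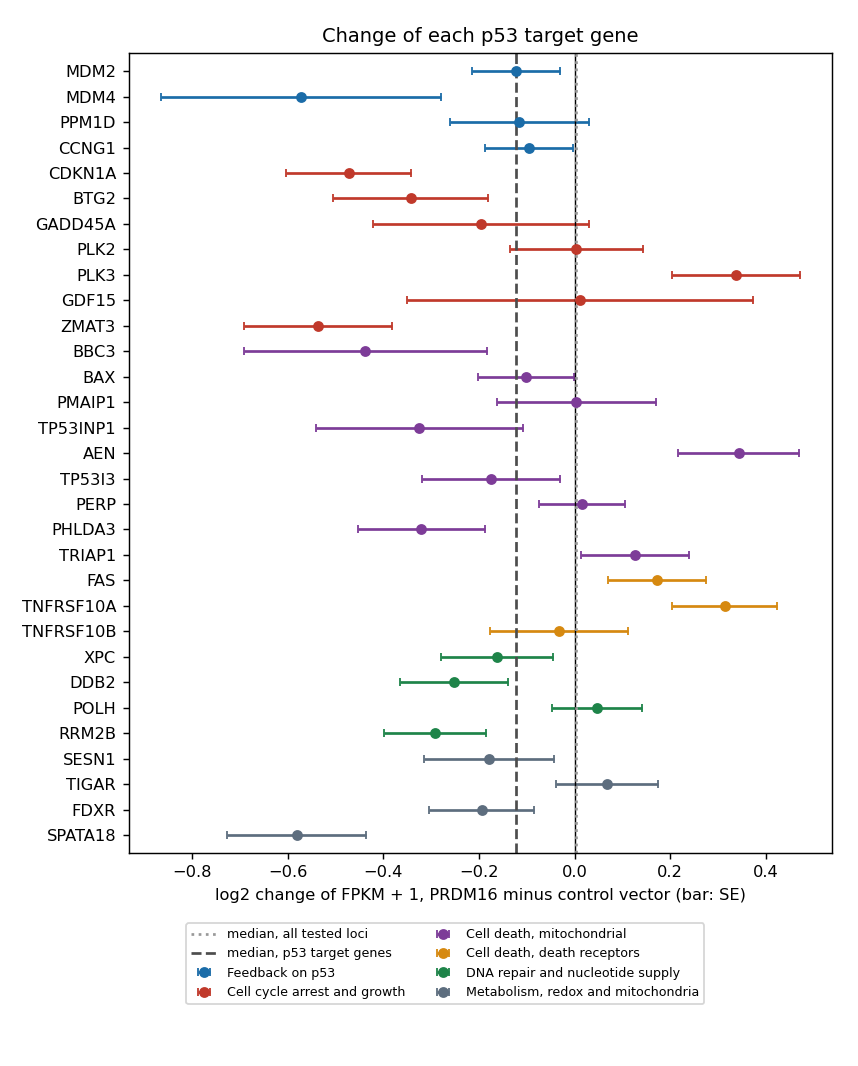
Log2 change of FPKM + 1 (PRDM16 minus control vector) for each p53 target gene, with bars for the SE from limma and colours for roles; the dashed line is the median of the 31 genes (-0.12) and the dotted line that of all tested loci (0.00399). Changes run from -0.58 for SPATA18 to 0.34 for AEN, and all stay within 1 log2 unit of 0.

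Of the 4 repair genes, 3 had a log2 change below 0, against 49.3% of all tested loci, and RRM2B alone had an unadjusted p under 0.05. RRM2B, the p53-induced subunit of ribonucleotide reductase that supplies nucleotides for repair, is on chromosome 8 at 102204502 to 102239118. It was at 14.7 and 14.2 FPKM in PRDM16, against 16.8 and 19.2 FPKM in the control vector, 1.24-fold lower without overlap (log2 change -0.29, SE 0.11, limma adjusted p = 0.689). DDB2, the damage sensor whose start carries the paired half-sites printed above, was at 15.4 and 14.7 FPKM in PRDM16, against 16.7 and 19.5 FPKM in the control vector. It was 1.21-fold lower without overlap, with a log2 change of -0.25 that was -0.15 without control vector replicate 2. XPC, its partner in recognising ultraviolet lesions, was at 9.52 and 8.38 FPKM in PRDM16, against 9.55 and 10.7 FPKM in the control vector, where the gap between the groups was only 9.52 to 9.55 FPKM. POLH, which copies past such lesions, was at 10.1 and 9.50 FPKM in PRDM16, against 9.39 and 9.47 FPKM in the control vector. The POLH groups were also separated by a gap far smaller than the spread of the PRDM16 libraries.

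Metabolic and mitochondrial targets included the member with the lowest log2 change. SPATA18 (also called MIEAP), a factor in mitochondrial quality control, is annotated on chromosome 4 at 52051331 to 52097292. It was at 1.74 and 1.43 FPKM in PRDM16, against 2.74 and 2.997 FPKM in the control vector. The groups did not overlap, at means of 1.59 ± 0.221 and 2.87 ± 0.184 FPKM (SD, n = 2 each), 1.81-fold lower with PRDM16. The log2 change was -0.58 (SE 0.14, limma adjusted p = 0.689), and it lay between -0.67 and -0.49 when each library was left out in turn. Its low level limits how precisely this is known.

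FDXR, the reductase that feeds electrons to mitochondrial steroid and iron-sulphur synthesis, was at 9.54 and 8.35 FPKM in PRDM16, against 10.1 and 10.7 FPKM in the control vector, 1.16-fold lower without overlap. SESN1, a sestrin that restrains mTORC1, was at 2.24 and 2.26 FPKM in PRDM16, against 2.47 and 2.90 FPKM in the control vector, also without overlap. TIGAR, a phosphatase that diverts glucose from glycolysis, overlapped at 13.9 and 14.5 FPKM in PRDM16 and 14.4 and 12.6 FPKM in the control vector.

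The members were not spread evenly over the libraries. Their summed FPKM were 1034 and 910 in PRDM16 and 986 and 1119 in the control vector, so PRDM16 replicate 1 was above control vector replicate 1. Control vector replicate 2 was the highest library for 19 of 31 members (61.3%), against 33.9% of all tested loci, and PRDM16 replicate 2 was the lowest for 16 of 31 (51.6%), against 28.3%. The median log2 change of the 31 members was -0.12 over all libraries. Leaving out PRDM16 replicate 2 gave a median of -0.049, and leaving out PRDM16 replicate 1 gave -0.19. With control vector replicate 1 left out it was -0.20. Without control vector replicate 2, 20 members still had a log2 change below 0, and the median of the 31 was -0.09. Of all 31 members, 4 changed sign without it, namely GADD45A, PLK2, TNFRSF10B and TIGAR. The log2 changes below 0 that moved most towards 0 were those of MDM4, BBC3, TP53INP1 and GADD45A, while SPATA18 kept -0.53 and ZMAT3 -0.40.

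**Figure D3:**
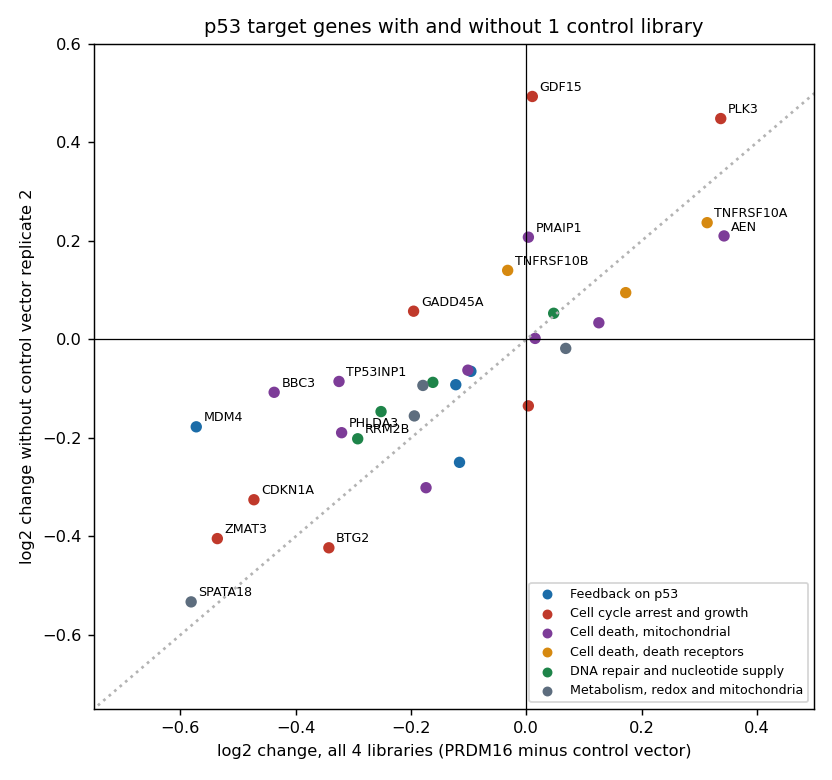
Log2 change of each p53 target gene (PRDM16 minus control vector) with all 4 libraries on the horizontal axis and without control vector replicate 2 on the vertical axis, coloured by role; the dotted line marks equal values. SPATA18, ZMAT3, CDKN1A and BTG2 stay below -0.3 on both axes, whereas GDF15 moves from 0.01 to 0.49.

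Of 48 further p53 target genes, 41 were tested, with a median log2 change of -0.07. Of these, 27 were below 0 (65.9%, against 49.3% of all tested loci). Both PRDM16 libraries lay below both control vector libraries at 10 of them (24.4%) and above at 4 (9.76%), against 20.3% and 21.1% of all tested loci. None was called, with an unadjusted p under 0.05 for 5 lower genes and 1 higher gene. Among all tested loci, 3.7% were lower and 2.42% higher with such a p. The 3 with the smallest p were all lower. IGFBP3, a binding protein of insulin-like growth factors, was at 311 and 325 FPKM in PRDM16, against 560.0 and 637 FPKM in the control vector (limma adjusted p = 0.271). It is also a target of other pathways, hypoxia among them. ANXA4, an annexin, was at 154 and 167 FPKM in PRDM16, against 205 and 219.9 FPKM in the control vector. DRAM1, a lysosomal protein that links p53 to autophagy, was at 17.9 and 16.3 FPKM in PRDM16, against 22.6 and 22.5 FPKM in the control vector. Of the 41 further targets, TRIM22, ORAI3 and CCNK were measured in loci that also carry other names. TRIM22 is among the 5 lower genes with an unadjusted p under 0.05. In loci with 1 gene name, 25 of 38 further targets were below 0, with a median of -0.06.

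Regulators and cofactors of p53 had a median log2 change of -0.06. Of the 22 tested genes, 14 were below 0 (63.6%), against 64.5% of the 31 members and 49.3% of all tested loci. None was called, and 2 had an unadjusted p under 0.05, both lower. Among all tested loci, 3.7% were lower with such a p. The kinase HIPK2, which phosphorylates p53, was at 32.6 and 27.4 FPKM in PRDM16, against 39.0 and 36.7 FPKM in the control vector. The coactivator CREBBP was at 18.5 and 16.9 FPKM in PRDM16, against 20.8 and 22.5 FPKM in the control vector. Its relative EP300, in a locus that also names a microRNA, was at 11.6 and 11.2 FPKM in PRDM16, against 13.1 and 14.1 FPKM in the control vector. In all 3 genes the groups did not overlap. The same held for 8 lower (36.4%) and 3 higher (13.6%) genes of the 22, against 20.3% and 21.1% of all tested loci. CHEK1, among the higher genes, was measured in a locus that also names STT3A, and RPL5 in a locus that also names a small nucleolar RNA. In loci with 1 gene name, 13 of 19 regulators were below 0, with a median of -0.07.

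Cell cycle genes that p53 represses through CDKN1A and the DREAM complex had log2 changes above 0 in 17 of 18 cases, with a median of 0.27. Among all tested loci the share above 0 was 50.7%. None was called, and none had an unadjusted p under 0.05. CDC20, which activates the anaphase-promoting complex, was at 157 and 160.3 FPKM in PRDM16, against 145 and 119 FPKM in the control vector. The mitotic kinase AURKB was at 101 and 106 FPKM in PRDM16, against 94.3 and 69.3 FPKM in the control vector. Control vector replicate 2 was the lowest library for 17 of the 18 genes, against 38.7% of all tested loci. Without it the median was -0.0070 with 11 of 18 genes below 0. CDKN1A itself was at a log2 change of -0.33 without that library.

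Integrated stress response genes, several of which share activators with GDF15, BBC3, PMAIP1 and TNFRSF10B, had log2 changes below 0 in 10 of 10 cases. Their median was -0.39, and 49.3% of all tested loci were below 0. None was called, and none had an unadjusted p under 0.05. ATF3, a stress-induced transcription factor that is also listed among the further p53 targets, was at 9.73 and 6.23 FPKM in PRDM16 and 9.23 and 17.5 FPKM in the control vector. DDIT4, an inhibitor of mTORC1, was at 406 and 274 FPKM in PRDM16 and 349 and 636 FPKM in the control vector. VLDLR, a lipoprotein receptor, was the only gene of this list without overlap, at 23.9 and 21.4 FPKM in PRDM16, against 25.99 and 28.9 FPKM in the control vector. All 10 genes were highest in control vector replicate 2, and without that library the median was 0.11. The part of this stress signal in the values of the p53 target genes was not tested.

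**Figure D4:**
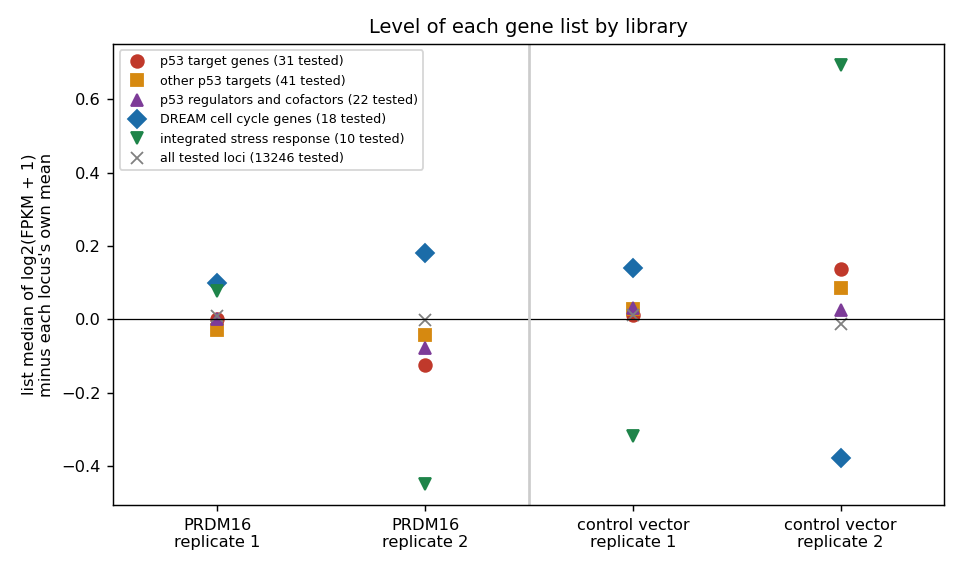
For each library, the median over a gene list of log2(FPKM + 1) minus each locus's own mean over the 4 libraries, with PRDM16 libraries on the left and control vector libraries on the right. The p53 target genes are near 0 in PRDM16 replicate 1 (-0.00042) and control vector replicate 1 (0.012). They are at -0.12 in PRDM16 replicate 2 and 0.14 in control vector replicate 2. In control vector replicate 2 the integrated stress response list reaches 0.69 and the DREAM cell cycle list -0.38.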

How the data were processed

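RNA-seq libraries of 786-O cells (PRDM16, 2; control vector, 2; grouped by the labelled vector) were processed by the authors with Trim Galore, TopHat2 2.1.0, Cufflinks 2.2.1 and Cuffdiff on hg38, per the submitters' processing notes. The authors' deposited values were taken as FPKM from the tools named and from values that are not whole; the header names no unit. The sources used here give neither library scaling nor annotation. Zeros may be failed estimates.

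Loci with a mean of at least 1 FPKM were fitted with limma 3.58.1 (R 4.3.3) on log2(FPKM + 1) with a variance trend and Benjamini-Hochberg adjustment over all loci, threshold 0.05. An exact permutation test of 2 against 2 libraries cannot go below p = 0.333. On simulated data with 13246 loci, in which only loci at 5 FPKM or more were changed, the fit recovered 1.2% of changes of 0.5, 45.2% of 1 and 79.2% of 2 on the log2 scale, so most differences of the size seen in the members would not be called. Absolute depth is unknown and limits weak genes most.

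Members and lists were chosen with earlier results of these data known. All members were named; from each other list, the 3 with the smallest p, of which 1 is not reported here. Gene positions are from GENCODE 29 (GRCh38). Tables and plots used Python 3.11.15, pandas 2.3.3 and matplotlib 3.10.9. Alternatives covered pseudocounts, filters, scalings, the variance model, a replicate block, each library left out, and loci with 1 gene name.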

Additional observations from a re-analysis of the deposited data

How the results depend on the processing

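No member was called under any alternative, the lowest adjusted p (limma) being 0.120 with 1 library left out. Of the 31 members, 23 kept their direction under every alternative and 8 did not. PLK2, GDF15 and PMAIP1 were below 0 after quantile normalization, at -0.046, -0.035 and -0.042. With each library left out, the log2 change ranged from -0.25 to 0.018 for PPM1D, -0.45 to 0.057 for GADD45A, -0.13 to 0.14 for PLK2, -0.47 to 0.49 for GDF15, -0.20 to 0.21 for PMAIP1, -0.026 to 0.057 for PERP, -0.20 to 0.14 for TNFRSF10B and -0.018 to 0.16 for TIGAR; the cause was not tested. With a mean of at least 5 FPKM, 12 of 23 members were below 0 with a median of -0.032, since that filter leaves out the 8 weakest members. The number of called loci, 3, became 1 when no filter was applied, 5 at a pseudocount of 0.1, 6 when the variance trend was dropped and 17 to 37 with 1 library left out. With each library left out, medians ranged from -0.20 to -0.049 for the members, -0.93 to 0.11 for integrated stress response genes, -0.086 to -0.039 for further p53 targets, -0.10 to -0.032 for regulators and -0.0070 to 0.52 for DREAM genes. The replicate differences of the groups were nearly uncorrelated (-0.0584 over 13246 loci), which cannot show whether same-numbered libraries were prepared together. With the replicate numbers as a replicate block, 5 loci and 0 members were called. In that fit 3 members (main analysis, 6) had an unadjusted p under 0.05. The planned count-based alternative was not run, since the values are not counts.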

Other observations

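Relatives of members on the fixed list of further p53 targets were read for comparison, as values with no explanation. Among the decoy receptors of the TRAIL family, TNFRSF10D was at 8.13 and 8.71 FPKM in PRDM16 and 6.99 and 8.95 FPKM in the control vector, with overlap. TNFRSF10C was below the filter, at 0.389 and 0.269 FPKM in PRDM16 and 0.643 and 0.751 FPKM in the control vector. Both PRDM16 libraries lay below both control vector libraries. SESN2, the stress-induced relative of SESN1, was at 20.5 and 12.2 FPKM in PRDM16 and 15.2 and 31.2 FPKM in the control vector. It overlapped between the groups and was highest in control vector replicate 2, like the integrated stress response genes.

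Downstream of BAX, BBC3 and PMAIP1, the caspase adaptor gene APAF1 was at 4.77 and 5.26 FPKM in PRDM16 and 5.12 and 4.44 FPKM in the control vector, with overlap. PIDD1, a death domain protein induced by p53, was at 7.54 and 6.13 FPKM in PRDM16 and 7.11 and 8.80 FPKM in the control vector, also with overlap.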
